A study of Mus musculus with 26 samples.

Results

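The genes flanking the HoxB cluster are the neighbours of this Hox cluster on mouse chromosome 11. They were taken as all genes whose locus in the deposited expression table lies wholly between 95.2 and 97.2 Mb (mm10), without the genes named Hoxb and without Mir196a-1, and with a mean of 10 or more counts over the 26 libraries. Of 79 such loci 34 reached that mean and are called the flanking genes or members below, out of 55141 genes in the count table. Of the other 45 loci, 11 had 0 counts in every library and 26 had a mean under 1. B4galnt2 (mean 9.96 counts), Skap1 (8.58) and Gm11534 (6.42) lay just under the minimum, and Gm29202 (16.6), Gngt2 (18.5) and Gm37179 (20.04) lay just above it.

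The samples are polyadenylated RNA of gastruloids, which are grown from embryonic stem cells and build an elongated body of trunk and tail tissues without an embryo. The study is titled after the insulation of Hoxb13 by CTCF. Each of the 8 lines carries HoxB Del/Del(i9-13), a pair of alleles of which one is written Del and the other Del(i9-13), so no line has an unedited pair of clusters. The labels do not say which of them carries the further changes, and the counts are not split by allele. The line InsDel5to10 carries Ins(CBS5-10) followed by Del(CBS5-10), InsDel7to10 carries Ins(CBS5-10) followed by Del(CBS7-10), and InsDel8to10 carries Ins(CBS5-10) followed by Del(CBS8-10). InvClone1 and InvClone2 are clones of 1 labelled allele, Ins(CBS5-10):Inv(CBS5-10), and InvDel7to10 carries that inversion with Del(CBS7-10). Ins carries Ins(CBS5-10) alone, and the line called Del here carries nothing beyond the shared pair. At 120h after aggregation there were 2 libraries each of InsDel5to10, InsDel7to10 and InvClone2, 1 each of InsDel8to10 and InvDel7to10, 4 of InvClone1, 3 of Ins and 3 of Del. The 144h libraries number 1 each for InsDel8to10, InvDel7to10, Ins and Del and 2 for InvClone1, which had 1 more at 96h and 1 at 168h. Nothing in the labels shows that replicates were grown separately, and the spread that p-values measure may be technical.

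Hox genes stand in clusters, and their order along the chromosome matches the order in which they are used along the body axis. CTCF is a DNA-binding protein that, together with cohesin, marks the borders of chromosome loops and can keep a regulatory element from acting on a gene across the border. Hoxb13 is the most posterior gene of its cluster, and its neighbours beyond the cluster do unrelated work, much of it needed in every cell.

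The flanking genes fall on both sides of the cluster. On the 5' side, the side of Hoxb13, lie 18 of them, 15 of these protein-coding, and on the 3' side, beyond Hoxb1, lie 15, 14 of these protein-coding. The remaining member, the pseudogene Gm11539, lies inside the cluster span 51.2 kb from the nearer edge of Hoxb13. Hoxb13 spans chromosome 11, 96194316 to 96197447 (mm10). The nearest member on the 5' side is Atp5g1, 96068852 to 96075670, whose edge is 118.6 kb away, and the 4 loci between them all had mean counts of 3.77 or less. Ube2z lies 128.9 kb away, Snf8 146.9 kb, the predicted genes Gm29202 and Gm37179 186.3 and 187.2 kb, and Igf2bp1 188.4 kb. The 3' side starts with Snx11, 96767555 to 96777559, which is 399.3 kb beyond Hoxb1 and 570.1 kb from Hoxb13, followed by Cbx1, Nfe2l1, Copz2 and Cdk5rap3 at 591.7 to 710.0 kb. On the 5' side 6 members thus lie under 0.25 Mb from Hoxb13, 5 lie between 0.25 and 0.5 Mb and 7 lie farther out, while every member of the 3' side is over 0.5 Mb away. These are distances in the reference build. The extents of the allele Del and of Del(i9-13) are not given in the labels, so the distance from Hoxb13 to the 3' side in the edited chromosomes, and whether the Gm11539 locus is left in them, are not known here.

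The promoters of 5 members are printed because the results turn on these genes. Ube2z and Atp5g1 have the start sites nearest to Hoxb13, both on the minus strand, so that they are transcribed away from the cluster. Ngfr, Phospho1 and Copz2 differed between stages. Each sequence runs 5' to 3' over 300 bases around the start site that RefSeq annotates on GRCm38.p6, the assembly named mm10. Most of these bases lie before the start site, and capitals mark the GC box GGGCGG or its complement CCGCCC.
Ube2z, chr11:96065315-96065614, minus strand: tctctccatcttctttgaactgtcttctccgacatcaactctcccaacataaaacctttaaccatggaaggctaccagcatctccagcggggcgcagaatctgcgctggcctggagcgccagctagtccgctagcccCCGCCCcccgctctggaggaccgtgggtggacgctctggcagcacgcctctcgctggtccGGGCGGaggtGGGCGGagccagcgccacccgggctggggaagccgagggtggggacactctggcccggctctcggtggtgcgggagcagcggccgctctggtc
Atp5g1, chr11:96075582-96075881, minus strand: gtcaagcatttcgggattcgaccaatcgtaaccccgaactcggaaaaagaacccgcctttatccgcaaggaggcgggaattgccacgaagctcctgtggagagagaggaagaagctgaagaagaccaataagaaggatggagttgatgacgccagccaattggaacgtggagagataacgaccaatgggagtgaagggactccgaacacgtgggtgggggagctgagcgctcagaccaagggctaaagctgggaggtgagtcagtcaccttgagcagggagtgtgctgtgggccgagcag
Ngfr, chr11:95587649-95587948, minus strand: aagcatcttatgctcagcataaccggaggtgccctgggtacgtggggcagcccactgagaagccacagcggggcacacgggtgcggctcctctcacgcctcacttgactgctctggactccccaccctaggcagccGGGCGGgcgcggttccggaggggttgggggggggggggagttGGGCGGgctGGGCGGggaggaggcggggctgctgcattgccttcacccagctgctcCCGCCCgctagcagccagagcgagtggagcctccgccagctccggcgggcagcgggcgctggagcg
Phospho1, chr11:95824250-95824549, plus strand: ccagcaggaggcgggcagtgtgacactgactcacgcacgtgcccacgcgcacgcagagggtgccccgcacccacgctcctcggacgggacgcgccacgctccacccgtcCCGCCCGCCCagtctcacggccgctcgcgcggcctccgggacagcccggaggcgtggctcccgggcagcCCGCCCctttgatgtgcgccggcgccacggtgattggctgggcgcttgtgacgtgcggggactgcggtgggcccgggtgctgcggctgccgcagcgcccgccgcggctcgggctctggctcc
Copz2, chr11:96849626-96849925, plus strand: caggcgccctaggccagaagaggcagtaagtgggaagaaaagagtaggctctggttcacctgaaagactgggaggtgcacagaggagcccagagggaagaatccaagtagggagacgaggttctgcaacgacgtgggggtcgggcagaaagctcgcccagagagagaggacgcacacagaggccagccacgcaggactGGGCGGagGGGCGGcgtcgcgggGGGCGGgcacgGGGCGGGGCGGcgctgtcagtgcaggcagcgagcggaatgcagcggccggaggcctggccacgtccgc
RefSeq promoters were found for 22 of the 34 members, 30 in all since some genes have several. A GC box on either strand stood in 17 of these 30 (56.7%), against 35.7% of all 32851 promoters in the table. CCACTAG, letters of the CTCF motif, stood in 0 of the 30 and in 2.68% of all promoters, and CAATAAA, a motif of posterior HOX proteins, stood in 1 (Sp2) and in 4.60% of all. Among the 5 printed promoters, Copz2 held 5 GC boxes, Ngfr 4, Ube2z and Phospho1 3 each and Atp5g1 0. These are matches of letters in short windows, and binding was not measured.

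Total counts per library ran from 18746411 to 37716547, and the members took 0.331% to 0.400% of them. Marker genes of gastruloid tissues were present, with summed levels over all 26 libraries of 28.2 to 371 CPM (counts scaled to library size) for 4 tailbud markers and 139 to 1052 CPM for 4 somite markers. The summed level of 4 T and immune cell markers was 8.19 to 18.7 CPM, with at least 1 of them at 0 in every library, while a marker was at 0 in 23 libraries for endothelium and blood, 14 for cardiac tissue and 1 for somites. Of the 34 members 23 overlap another gene of the table and 10 overlap another member. Abi3 shares 5194 bases with Gngt2 and 2067 with Phospho1, Gm29202 shares 823 with Gm37179, and D030028A08Rik overlaps Cdk5rap3 and Sp2. The sources used here do not state whether the counting used strand, so how reads were split within these groups is uncertain, as it is for the pseudogene Gm11539.

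The levels of the flanking genes are a description, since a minimum count chose them and 45 of the 79 loci fell below it. Per transcript length, the mean level over the 26 libraries had a median of 7.63 FPKM (fragments scaled by transcript length and depth) over the members, 10.4 on the 5' side and 7.13 on the 3' side, against 3.38 over all 17769 genes tested. Kpnb1, the importin that carries proteins into the nucleus, was highest with 177 FPKM, between 150 and 214 in single libraries. It was followed by Cbx1, a heterochromatin protein, with 70.1 FPKM, by Igf2bp1, an RNA-binding protein of embryonic tissues, with 67.4, and by Atp5g1, which encodes the ring subunit of mitochondrial ATP synthase, with 66.6. These 3 neighbours in the order overlapped in their ranges, 44.4 to 90.3 FPKM for Cbx1, 49.0 to 83.1 for Igf2bp1 and 32.0 to 115 for Atp5g1. The lowest were Abi3 on the 5' side (0.315 FPKM), Lrrc46 on the 3' side (0.523) and Gm11539 inside the span (0.283). The highest CPM over the 26 libraries was under 2 times the lowest in 12 of the 33 members with reads in every library, and the median ratio was 2.58. The ratio was smallest for Kpnb1 (1.45 times), Spop, a substrate adaptor of a ubiquitin ligase (1.49 times), and Cbx1 (1.53 times), and it was 1.93 times for Ube2z, 2.56 times for Atp5g1 and 4.16 times for Cdk5rap3. It was 11.9 times for Scrn2, 9.61 times for Sp6, a zinc-finger transcription factor, 6.60 times for Ngfr, a neurotrophin receptor, and 52.4 times for Nxph3, a secreted neurexophilin, which had few reads. Hoxb13 itself ran from 0.162 to 87.0 CPM. The median SD of log2 CPM over the libraries was 0.30 for the members and 0.31 for all genes tested.

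Adding Ins(CBS5-10) to the shared pair of alleles separated the lines in Hoxb13 and in no flanking gene at the threshold. Hoxb13 averaged 0.809 ± 0.459 CPM in Ins gastruloids and 62.2 ± 27.6 CPM in Del gastruloids at 120h (SD, n = 3 each), a log2 fold change of -6.30 ± 0.46 (SE; edgeR quasi-likelihood test, adjusted p = 0.000153). In that fit a gene counts as called where its p, adjusted by Benjamini and Hochberg over all 17769 genes, is under 0.05. By this test 0 of 34 members were called between Ins and Del, where 0.00563% of all genes were called, a share that is Hoxb13 alone. At an unadjusted p under 0.05 there were 2 members (5.88%), against 1.06% of all genes, and DESeq2 and limma voom also called 0 members. A block for replicate number gave 0 members and 2 genes called. The size of the members' changes was small: 31 of 34 lay within 0.5 of 0 on the log2 scale, and for 25 the whole 95% interval lay within 1.

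The 4 coding members nearest to Hoxb13 had almost equal levels in both lines. Igf2bp1 had 628, 544 and 668 CPM in Ins libraries, against 604, 581 and 664 CPM in Del libraries. Ube2z, a conjugating enzyme of the ubiquitin family, had 162, 154 and 151 CPM in Ins libraries, against 164, 164 and 144 CPM in Del libraries. Atp5g1 had 96.0, 120 and 86.1 CPM in Ins libraries, against 100, 101 and 89.7 CPM in Del libraries. The groups overlapped in all 3 genes. For Snf8, a sorting subunit of endosomes, they overlapped too, with 36.0, 44.7 and 31.2 CPM in Ins libraries, against 39.3, 41.1 and 31.4 CPM in Del libraries. The log2 fold changes of these 4 genes ran from -0.01 to 0.04, and their 95% intervals from -0.38 to 0.47, far from the -6.30 of Hoxb13 some 119 kb away.

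The members that came closest to a call between Ins and Del lay far out on the 5' side, 606.6 and 679.7 kb from Hoxb13. Nxph3 had 0.751, 1.80 and 0.469 CPM in Ins libraries, against 3.17, 7.25 and 3.51 CPM in Del libraries. The groups did not overlap, and the log2 fold change was -2.27 ± 0.61 (SE; edgeR, adjusted p = 1). Under the library name ISML_first it was -1.65 and under ISML_second -2.05 (with 0.5 CPM added to each value), and leaving out 1 library at a time gave -2.83 to -1.92 with no call. Without the filter on low counts the adjusted p of Nxph3 was 3.9e-06, so this call depended on that setting. Ngfr had 15.3, 13.4 and 14.3 CPM in Ins libraries, against 28.1, 21.3 and 17.1 CPM in Del libraries. These groups did not overlap either, with a log2 fold change of -0.61 ± 0.25 (edgeR, adjusted p = 1) that was -0.75 under ISML_first and -0.25 under ISML_second. In all, 4 members were lower and 0 higher in Ins without overlap, and the share of all genes is not given here. In bulk samples such as these, fewer cells of a type and less RNA per cell cannot be told apart. Summed neural tube markers, which bear on genes used in neural tissue, ran from 113 to 285 CPM in Ins libraries and from 129 to 208 CPM in Del libraries, and their part in these values was not tested.

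**Figure D1:**
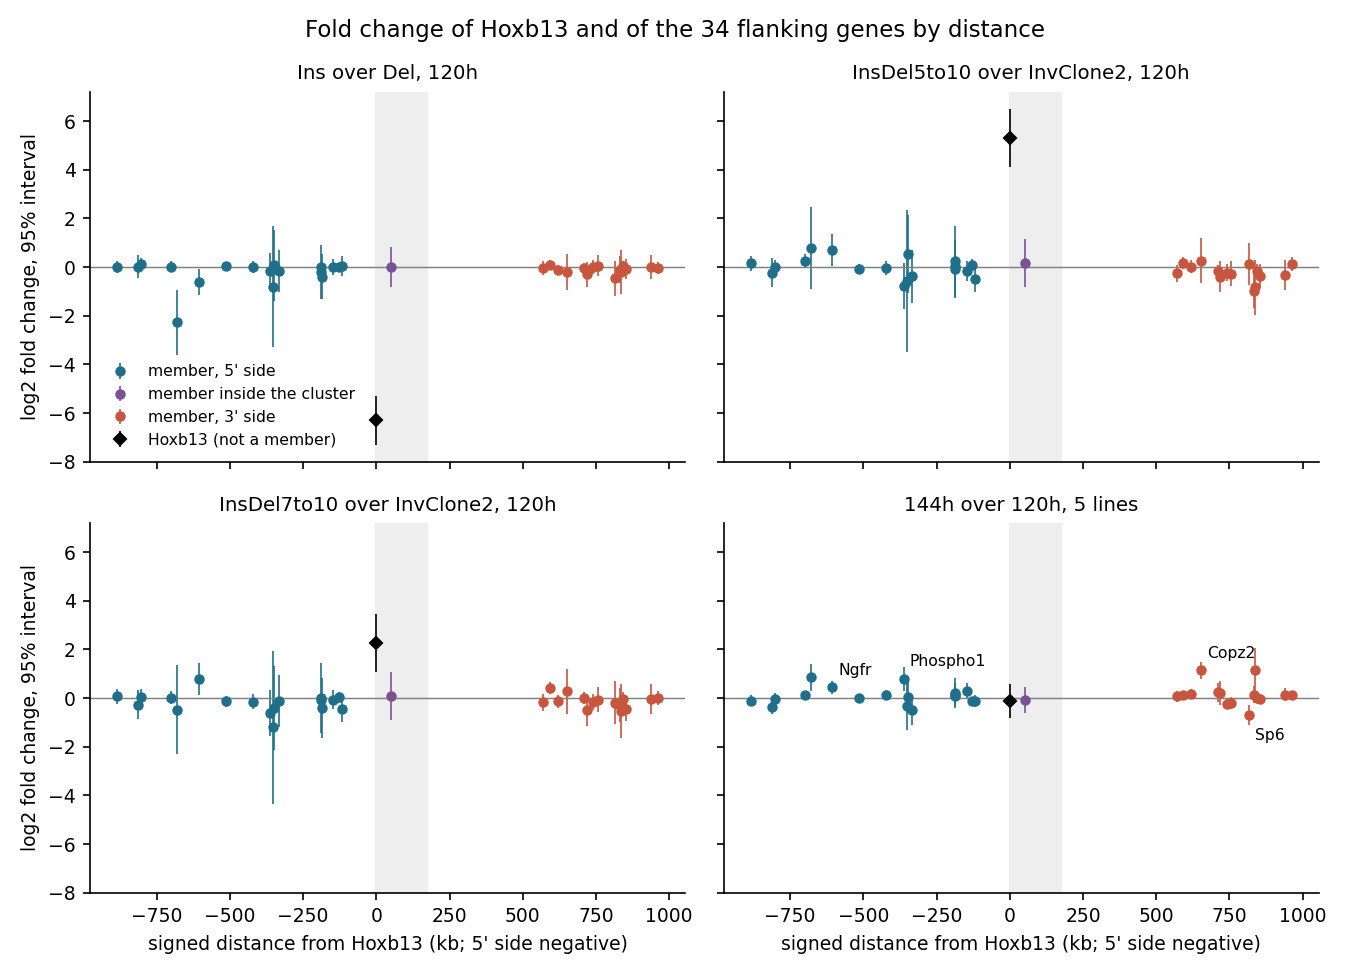
Each panel plots the log2 fold change of the 34 flanking genes (circles, coloured by side) and of Hoxb13 (black diamond) with its 95% interval against the signed reference distance from Hoxb13 in kb, with the span from Hoxb13 to Hoxb1 shaded. Hoxb13 stands at -6.30 in Ins over Del and at 5.30 in InsDel5to10 over InvClone2, while nearly all members lie near 0 at every distance, and in the stage panel the 4 called members are named.

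By distance the members' changes between Ins and Del did not grow towards Hoxb13. The median absolute log2 fold change was 0.028 for the 6 members of the 5' side under 0.25 Mb, 0.16 for the 5 between 0.25 and 0.5 Mb, 0.023 for the 7 over 0.5 Mb and 0.074 for the 15 of the 3' side, against 0.089 over all genes tested. The same medians were 0.14, 0.54, 0.23 and 0.25, against 0.22, in InsDel5to10 over InvClone2. They were 0.071, 0.43, 0.14 and 0.18, against 0.22, in InsDel7to10 over InvClone2. The middle distance holds Zfp652, a zinc-finger repressor, with 4 members of few reads (Phospho1, Abi3, Gngt2 and 4833417C18Rik, mean counts of 18.5 to 44.6), which have wide intervals.

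Removing the insertion again was read against the inverted clone InvClone2, which shares the library name ISML_third with InsDel5to10 and InsDel7to10. Hoxb13 averaged 28.6 ± 10.1 CPM in InsDel5to10, 3.48 ± 1.75 CPM in InsDel7to10 and 0.719 ± 0.0184 CPM in InvClone2 (SD, n = 2 each). By edgeR 0 of 34 members were called in InsDel5to10 over InvClone2, where 0.152% of all genes were called. In InsDel7to10 over InvClone2 it was 0 of 34, with 0.141% of all genes, and in InsDel7to10 over InsDel5to10 0 of 34, with 0.253%. At an unadjusted p under 0.05 each of these had 2 members (5.88%), against 6.53%, 8.93% and 10.7% of all genes. DESeq2 and limma voom called 0 members in each. With 2 libraries per group, groups without overlap were common. In InsDel5to10 over InvClone2 7 members were higher and 12 lower without overlap. It was 1 and 9 in InsDel7to10 over InvClone2, and 4 and 4 in InsDel7to10 over InsDel5to10. The shares of all genes without overlap are not given here, so a lack of overlap does not set a member apart. These 3 comparisons share libraries among them, so their values are not independent.

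Over InvClone2, Ngfr had the second smallest p among the members in both lines. It had 21.9 and 14.8 CPM in InsDel5to10, 25.9 and 12.7 CPM in InsDel7to10 and 13.3 and 9.17 CPM in InvClone2. InsDel5to10 did not overlap InvClone2, at a log2 fold change of 0.71 ± 0.31 (SE; edgeR, adjusted p = 0.762), while InsDel7to10 overlapped it, at 0.78 ± 0.31 (adjusted p = 0.486). Scrn2, on the 3' side 832.5 kb from Hoxb13, had 10.1 and 8.45 CPM in InsDel5to10 and 17.5 and 19.6 CPM in InvClone2. These groups did not overlap, at -0.998 ± 0.32 (edgeR, adjusted p = 0.736), and without the filter on low counts Scrn2 was called (adjusted p = 0.0146). InsDel7to10 had 22.4 and 8.10 CPM of Scrn2, so its own libraries lay on both sides of the other lines. With replicate 1 of InsDel7to10 left out, Scrn2 was called in InsDel7to10 over InvClone2 at -1.19 (adjusted p = 0.0135). With replicate 2 left out it was called in InsDel7to10 over InsDel5to10 at 1.28 (adjusted p = 0.00109), and there Tbkbp1, an adaptor of a kinase in innate immunity, was called at 0.79 (adjusted p = 0.0211).

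Among the other members with the smallest p, Cbx1 had 186 and 179 CPM in InsDel7to10 and 142 and 131 CPM in InvClone2, with no overlap (0.42 ± 0.12, edgeR, adjusted p = 0.275). Over InsDel5to10, with 154 and 151 CPM, the difference of Cbx1 was 0.26 (adjusted p = 0.4656). Spop had a log2 fold change of 0.26 in InsDel5to10 over InvClone2 (adjusted p = 0.765) and -0.26 in InsDel7to10 over InsDel5to10 (adjusted p = 0.488). Osbpl7, an oxysterol-binding protein, had -0.44 in InsDel7to10 over InvClone2 (adjusted p = 0.622). Atp5g1, the member next to Hoxb13, had 91.9 and 82.4 CPM in InsDel5to10, 97.1 and 82.5 CPM in InsDel7to10 and 135 and 110 CPM in InvClone2. Both lines lay below InvClone2 with no overlap, at -0.49 (adjusted p = 0.771) and -0.45 (adjusted p = 0.639), and neither difference passed the main edgeR test. With a block for replicate number in place of library name, Atp5g1, Ngfr and Scrn2 were called in InsDel5to10 over InvClone2. That setting also called many more of all genes than the main fit. The other nearest coding members, Ube2z, Snf8 and Igf2bp1, had no fold change past the threshold in any of these 3 comparisons.

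**Figure D2:**
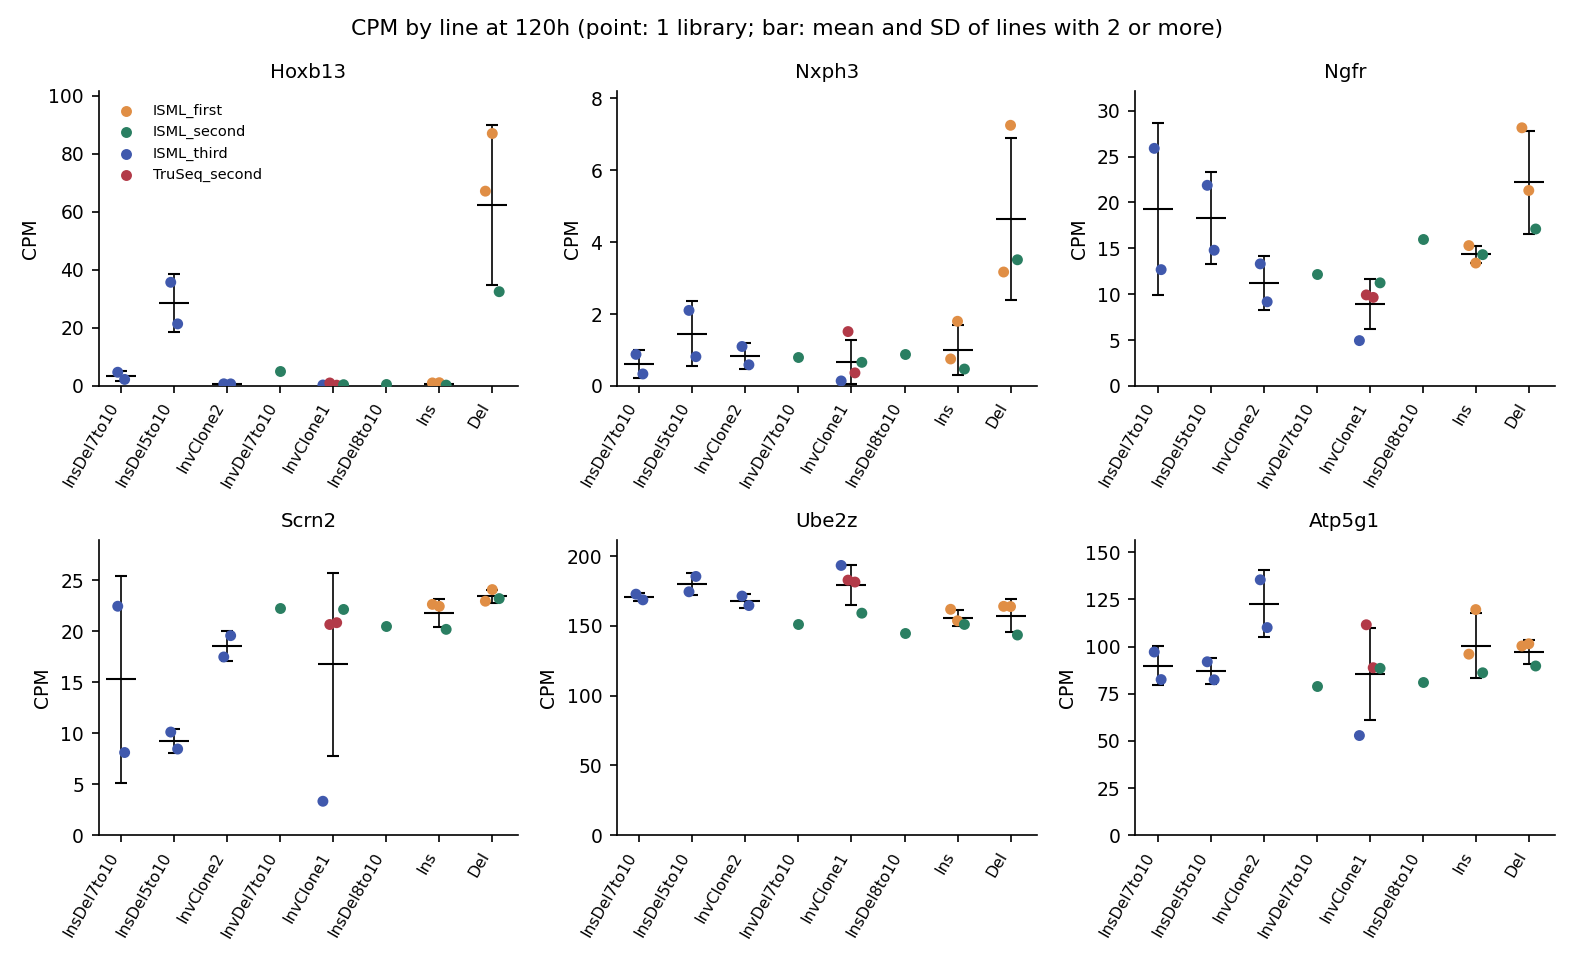
CPM of Hoxb13 and of 5 members in each line at 120h, with 1 point per library coloured by library name and a bar for the mean and SD of lines with 2 or more libraries. Hoxb13 is high in Del and InsDel5to10, Nxph3 is highest in the 3 Del libraries, Scrn2 is at 3.32 CPM in 1 InvClone1 library against 20.6 to 22.1 in the other 3, and Ube2z lies between 144 and 193 CPM in every line.

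Ins and InvClone2, which carry the inserted elements, were also set together against Del and InsDel5to10, which do not. The mean of both differences called 0 of 34 members by edgeR, with 0.0394% of all genes called. At an unadjusted p under 0.05 there were 3 members (8.82%), against 4.30% of all genes. DESeq2 and limma voom called 0. The 3 members were Ngfr with -0.66 ± 0.20, Nxph3 with -1.53 ± 0.50 and Scrn2 with 0.45 ± 0.21 (log2 fold change ± SE), each at an adjusted p of 0.970. With a block for replicate number in place of library name, Ngfr was called at -0.65 (edgeR, adjusted p = 0.0332) among 108 genes. This block pairs Ins with Del, but it also ties them by number alone to InvClone2 and InsDel5to10, which have another library name. Without the filter on low counts Ngfr (adjusted p = 0.0155) and Nxph3 were called. Ngfr averaged 13.1 ± 2.34 CPM in the 5 libraries with the elements and 20.6 ± 5.12 CPM in the 5 without (SD), and both groups overlapped. These values rest on the libraries already described. A test of whether the 2 differences differ from each other called 0 of 34 members, with 0.0394% of all genes called, and 0 by DESeq2 and limma voom. Only Scrn2 (2.94% of the members), at -1.11 ± 0.41, had an unadjusted p under 0.05 there (edgeR, adjusted p = 1), against 2.84% of all genes. With the same block in place of library name, and so with the same limit, Scrn2 was called (adjusted p = 0.0341) among 90 genes.

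The other alleles were compared with a line whose label they extend. The label of InvDel7to10 names no clone, and it was set against InvClone1, with which it shares a library name. Between InvClone1 and Ins 0 of 34 members were called by edgeR (0.0169% of all genes), with 0 members and 0.951% of genes at an unadjusted p under 0.05, and a block for replicate number left 0 members and 0 genes called, against 3 genes without it. Here Hoxb13 itself differed by 0.49 ± 0.79 on the log2 scale. The smallest p were those of Ube2z (0.18), Sp6 (0.74) and Sp2, another zinc-finger factor (-0.41), each at an adjusted p of 1. With replicate 4 of InvClone1 left out, the only one that shares a library name with an Ins library, Atp5g1 was called at -1.36 (adjusted p = 0.0474). The single InsDel8to10 library over Ins gave 0 of 34 members called and 0 genes of all (0%), with 0 members and 0.833% of genes at p under 0.05. The single InvDel7to10 library over InvClone1 gave 0 of 34 and 0 genes of all (0%), with 0 members and 1.22% of genes, although Hoxb13 was at 5.08 CPM there and at 0.507 ± 0.349 CPM in InvClone1 (n = 4). The lone libraries are assumed to vary like the replicated groups. DESeq2 and limma voom called 0 members in all 3 of these comparisons.

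Over these 7 comparisons between alleles at 120h, which share libraries, 8 of 238 member values had an unadjusted p under 0.05 and 0 were called. The log2 fold change stayed within 0.5 in all 7 for 24 of the 34 members and within 1 for 31. For 17 members, the whole 95% interval stayed within 1 in all 7. Igf2bp1 is one of these, with fold changes from -0.13 to 0.10 and interval bounds from -0.38 to 0.42. Ube2z ran from -0.14 to 0.18, Kpnb1 from -0.10 to 0.12, and Kat7, a histone acetyltransferase, from -0.09 to 0.16. Phb, a scaffold protein of the inner mitochondrial membrane, ran from -0.18 to 0.06, and Nfe2l1, a transcription factor of proteasome genes, from -0.15 to 0.14. The exceptions beyond 1 were Nxph3 (to -2.27), Abi3, a cytoskeletal adaptor (to -1.27), and Gm29202 (to -1.05), all of few reads. Gm11539, inside the span, ran from -0.26 to 0.16, and the widest of its bounds were -1.56 and 1.14.

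The clones InvClone2 and InvClone1 carry the same labelled allele, and the libraries of InvClone1 also differ among themselves, so their comparison does not measure a difference between clones alone. By edgeR 2 of 34 members were called (5.88%), where 11.7% of all genes were called, so the members' share was under that of all genes. At an unadjusted p under 0.05 it was above that of all genes, with 15 members (44.1%), against 28.8%. The 2 called members had a higher fitted level in InvClone2. Cdk5rap3, an adaptor of the ufmylation pathway, had 59.8 and 53.8 CPM in InvClone2, against 31.9, 66.9, 65.1 and 64.1 CPM in InvClone1. Scrn2 had 17.5 and 19.6 CPM in InvClone2, against 3.32, 20.6, 20.8 and 22.1 CPM in InvClone1. In both genes the groups overlapped, and 1 library, replicate 1 of InvClone1, lay far below the other 3. Those 3 were above both InvClone2 libraries, so the higher fitted level is not seen in most libraries. The fitted log2 fold changes were 0.91 ± 0.13 (SE; edgeR, adjusted p = 0.00293) for Cdk5rap3 and 2.39 ± 0.39 (adjusted p = 0.00407) for Scrn2. The fit has a term for library name, and replicate 1 is the only 120h library of InvClone1 under the name ISML_third, that of InvClone2. A set of libraries, chosen after seeing the data and called here those that stand apart, was left out in another fit. They are the 4 ISML_third libraries of InvClone1 and replicate 2 of InvClone1 at 120h and at 144h. Replicate 2 at 120h was the lowest of all 26 libraries in 0 members and the highest in 1, so the members do not set it apart. Without this set the fitted changes were -0.19 for Cdk5rap3 and -0.34 for Scrn2. In that fit the clones shared no library name, and replicate 3 was the only library under its own name. InvClone2 was thus set in effect against replicate 4 of InvClone1, with no correction for library name, so this fit cannot check the calls. With only replicate 1 left out Cdk5rap3 was called at 1.13 (adjusted p = 0.0102) and Scrn2 was at 2.19 (adjusted p = 0.0596). The term for ISML_third then rests on the 2 InvClone1 libraries at 144h alone. These values therefore carry the difference between those libraries and cannot check the calls either. With only replicate 4 left out 8 members were called, but the share of all genes in that setting is not given here, so this count cannot be set against it.

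That library was often at an end of the range over the flanking genes. Replicate 1 of InvClone1 at 120h was the lowest of the 4 libraries in 19 of 34 members and the highest in 8, while replicates 2, 3 and 4 were lowest in 4, 4 and 7. It was the lowest of all 26 libraries in 13 members. Replicate 2 of InvClone1 at 144h was the highest of all 26 in 11. The same counts over all genes are not given here, so these counts cannot be read as a trait of the flanking genes. Replicate 1 at 120h differed from replicates 2, 3 and 4 by a chi-square of 117 to 138 per degree of freedom. Among replicates 2, 3 and 4 it was 33.0 to 66.4. The members' median log2 fold change of InvClone2 over InvClone1 was 0.48, against 0.18 for the other genes of chromosome 11 and 0.03 for all genes tested. It was 0.18 with replicate 1 left out, 0.076 without a library term, 0.073 with the compared libraries alone and -0.072 without the libraries that stand apart. With replicate 1 left out, the term for ISML_third rests on the InvClone1 libraries at 144h alone. The fit without the libraries that stand apart in effect sets InvClone2 against 1 library under another name. The median absolute change was 0.49 for the members, 0.47 for the other genes of chromosome 11 and 0.44 for all genes tested. What set these libraries apart was not tested.

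**Figure D3:**
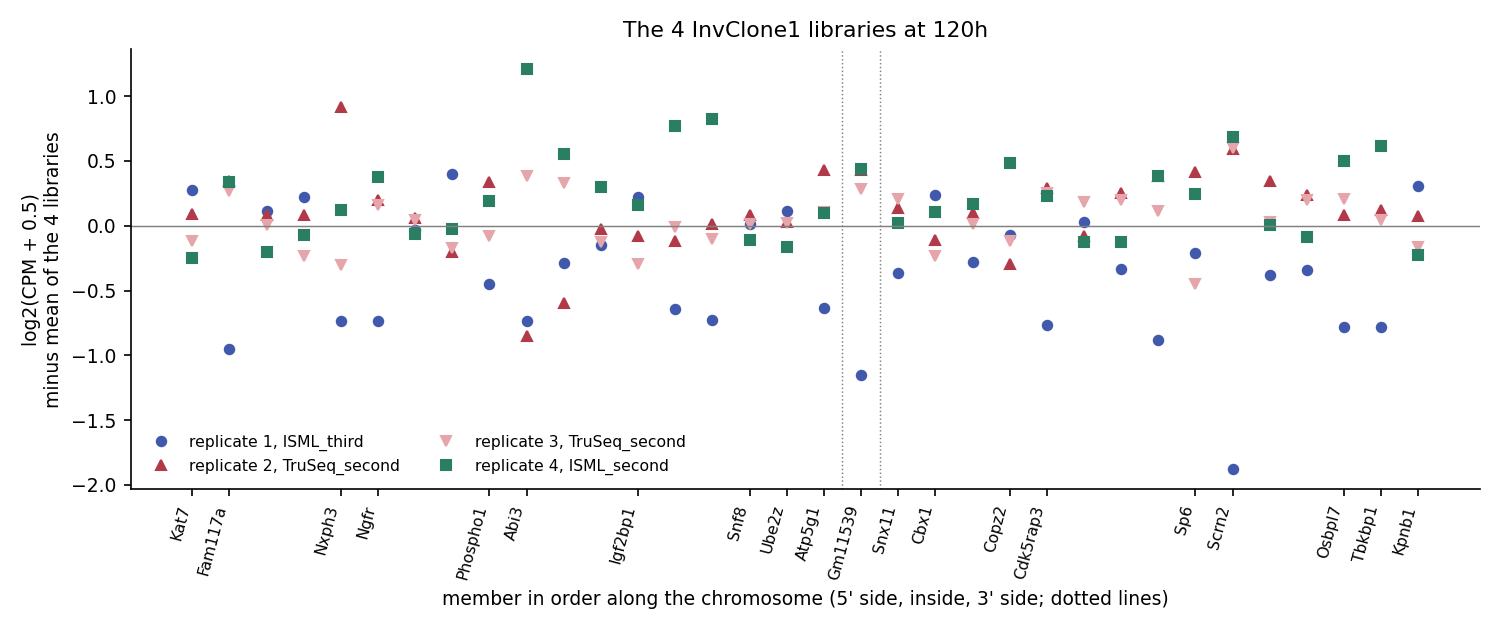
For each of the 34 members, in order along the chromosome, the log2 of CPM plus 0.5 in the 4 InvClone1 libraries at 120h is plotted as a difference from their mean, with names under some of the members that the text describes. Replicate 1 (blue circles) is the lowest of the 4 in 19 members, farthest in Scrn2 with 3.32 CPM against 20.6 to 22.1 CPM, and lies on both sides of 0 along the region.

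The stage of culture moved a few flanking genes, at a share no larger than that of all genes. The stages were compared in 5 lines with 1 library per line and stage, all under the name ISML_second, with line as a term. By edgeR 4 of 34 members (11.8%) differed between 144h and 120h, where 15.1% of 16043 genes were called. Of the 4, Copz2, Phospho1 and Ngfr rose and Sp6 fell. DESeq2 called 5 members and limma voom 4, and the shares of all genes called by these methods are not given here.

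Copz2, a coat subunit of transport vesicles, had 3.47 CPM in Ins, 3.47 in InsDel8to10, 5.36 in InvClone1, 3.73 in InvDel7to10 and 3.74 in Del at 144h. At 120h it had 2.06, 1.38, 2.47, 1.76 and 1.47 CPM in the same lines. The stages did not overlap, every line was higher at 144h, and the log2 fold change was 1.14 ± 0.15 (SE; edgeR, adjusted p = 0.00187). This call held in all 17 alternatives tried, at adjusted p of 1.3e-05 to 0.0136. The 17 are not independent, since leaving out either library of a line gives nearly the same fit, and the fit without InvClone1 repeats that line's pair.

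Phospho1, a phosphatase of mineralizing cells, had 2.96 CPM in Ins, 3.33 in InsDel8to10, 3.49 in InvClone1, 3.27 in InvDel7to10 and 2.48 in Del at 144h. At 120h it had 1.60, 2.22, 1.51, 1.42 and 2.45 CPM in the same lines. The stages did not overlap, but in Del they were almost equal, and the log2 fold change was 0.79 ± 0.21 (edgeR, adjusted p = 0.0422), called in 11 of 17 alternatives. Ngfr had 19.5, 17.7, 20.5, 16.5 and 19.7 CPM at 144h and 14.3, 16.0, 11.2, 12.2 and 17.1 CPM at 120h, in the same order of lines. Each line was higher at 144h although the stages overlapped, and the log2 fold change was 0.44 ± 0.12 (adjusted p = 0.0456), called in 8 of 17 alternatives. Sp6 had 7.06, 3.83, 8.33, 4.60 and 6.78 CPM at 144h and 7.22, 9.46, 11.5, 9.45 and 11.4 CPM at 120h. It was lower at 144h in every line, by little in Ins, at -0.69 ± 0.18 (adjusted p = 0.0400), called in 10 of 17 alternatives. These 3 calls were lost on leaving out single libraries. Without either Ins library the calls left were Copz2 and Sp6, without either Del library they were Copz2, Nxph3 and Phospho1, and without a library of InsDel8to10 or InvDel7to10 Copz2 alone.

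**Figure D4:**
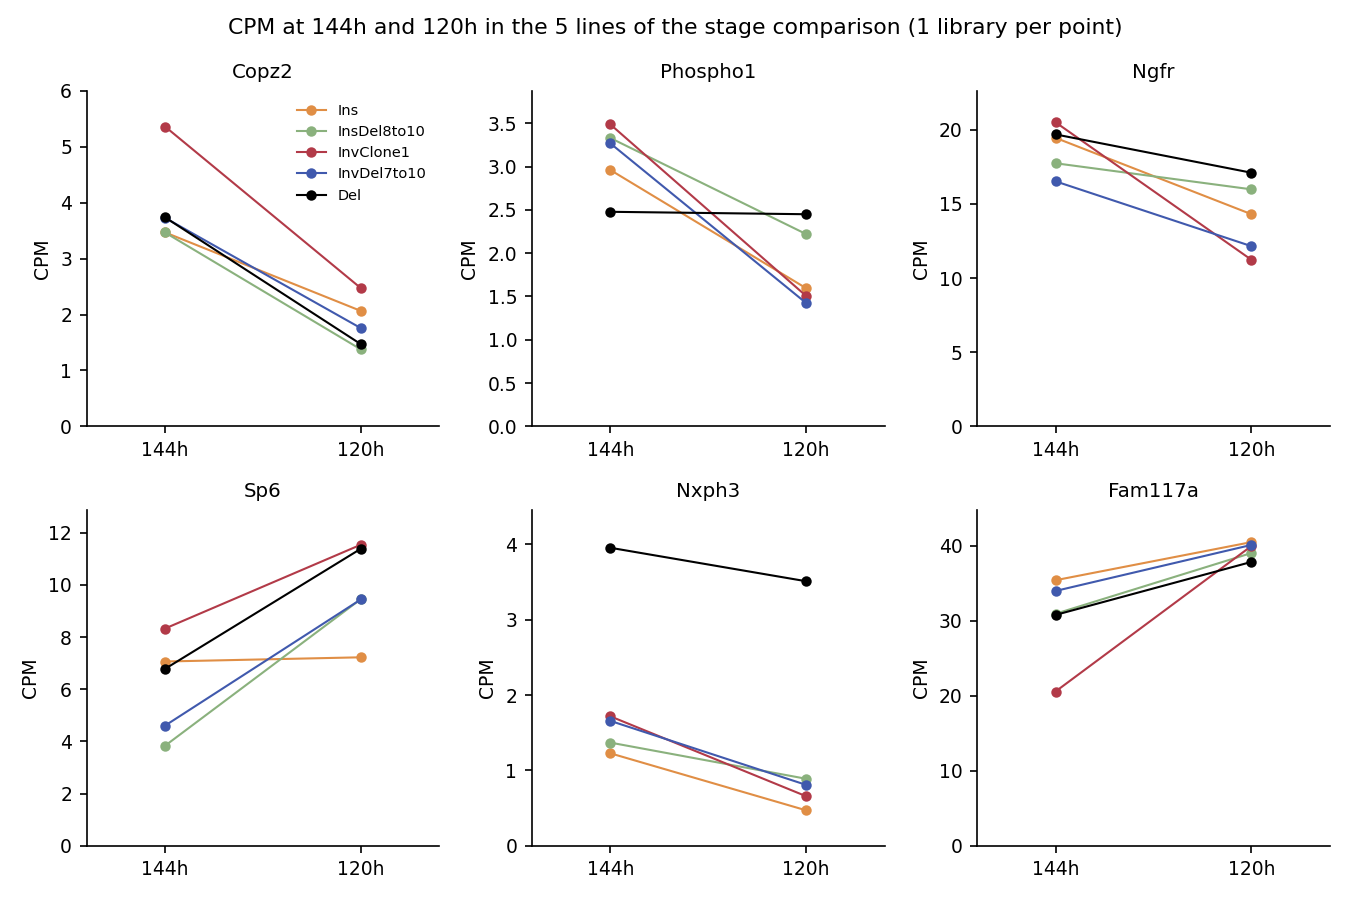
CPM at 144h and 120h of the 4 members called between stages and of Nxph3 and Fam117a, with 1 point per library and a line joining the libraries of each line. Copz2 is higher at 144h in all 5 lines without overlap, Sp6 is lower in all 5, and Nxph3 is higher in Del than in the other 4 lines at both stages.

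Just outside the threshold were Nxph3 with 0.85 ± 0.24 (edgeR, adjusted p = 0.0509), Fam117a with -0.38 ± 0.11 (0.0591) and Lrrc46 with 1.17 ± 0.39 (0.0868). In Del, Nxph3 reached 3.96 CPM at 144h and 3.51 CPM at 120h, above all 4 other lines at both stages, which had 1.23 to 1.72 CPM at 144h and 0.469 to 0.888 CPM at 120h. InvClone1 had the largest change of the 5 lines in 22 of 34 members. Without that line 9 of 34 members were called, where 31.2% of all genes were called. These were the 4 above, at 1.13 for Copz2, 0.66 for Phospho1, 0.32 for Ngfr and -0.75 for Sp6, and in addition Lrrc46 (1.64, adjusted p = 0.000368), Fam117a (-0.26, adjusted p = 0.00154), Ube2z (-0.15, adjusted p = 0.0153), Kpnb1 (0.10, adjusted p = 0.0341) and Nxph3 (0.68, adjusted p = 0.0486). All 5 lines changed the same way in 8 members that were higher and 5 that were lower at 144h. The shares of all genes are not given here for these counts or for the 22 members above. None of these counts can thus be read as a trait of the flanking genes.

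By role, 1 of 7 members of transcription and chromatin was called between the stages (Sp6, lower), 1 of 7 of ubiquitin, sorting and transport (Copz2, higher), 1 of 6 of signalling and adaptors (Ngfr, higher), 1 of 6 of mitochondria and metabolism (Phospho1, higher), 0 of 7 without such a role and 0 of 1 RNA-binding gene (Igf2bp1). By side, 2 of 18 on the 5' side and 2 of 15 on the 3' side were called, and 0 of the 6 members under 0.25 Mb from Hoxb13. Igf2bp1 differed by 0.09 (adjusted p = 0.395), Atp5g1 by -0.12 (0.501) and Snf8 by 0.28 (0.240). Hoxb13 differed by -0.11 (0.841). The members' median log2 fold change between stages was 0.10, against 0.02 on the rest of chromosome 11 and -0.0075 over all genes. Tissue markers moved with the stage in the same libraries. Summed presomitic markers were 13.0 to 50.8 CPM at 144h and 119 to 154 CPM at 120h, and tailbud markers were 67.9 to 166 CPM at 144h, against 228 to 285 CPM at 120h. Somite markers were 399 to 493 CPM at 144h, against 697 to 814 CPM at 120h, and neural tube markers 318 to 520 CPM at 144h, against 113 to 167 CPM at 120h. Cardiac markers were 11.3 to 32.9 CPM at 144h, against 2.62 to 7.83 CPM at 120h, and endoderm markers 131 to 177 CPM at 144h, against 94.6 to 129 CPM at 120h. Ranges overlapped between the stages for endothelium and blood, pluripotency and T and immune cells, and each list has 4 markers. Their part in the changes of Copz2, Phospho1, Ngfr and Sp6 was not tested.

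InvClone1 was also followed over 4 stages in ISML_third libraries, with 1 library per stage and so no test. All 4 are in the set called above the libraries that stand apart, which was chosen after seeing the data. Copz2 was at 0.852, 1.52, 3.06 and 4.18 CPM at 96h, 120h, 144h and 168h. The exact 95% Poisson intervals, which cover counting error only, ran from 0.528 to 1.30 CPM at 96h and from 3.45 to 5.0 CPM at 168h. Sp6 was at 12.1, 8.31, 3.86 and 1.71 CPM, with intervals from 10.7 to 13.5 at 96h and from 1.26 to 2.27 at 168h. Sp6 was thus lower at each later stage, with no overlap of neighbouring intervals. Copz2 had a higher value at each later stage, but its intervals overlap between 96h and 120h and between 144h and 168h. Ube2z had a lower value at each later stage, with 201, 193, 148 and 104 CPM, and its intervals overlap between 96h and 120h. Tbkbp1 was at 10.0, 10.1, 12.7 and 22.1 CPM, and its counting intervals overlap over the first 3 stages. The other 30 members had no single direction. Ngfr was at 12.7, 4.94, 9.23 and 32.6 CPM and Scrn2 at 8.28, 3.32, 7.23 and 16.7 CPM, both lowest at 120h. From 96h to 168h the log2 change, with 0.5 CPM added, was 1.79 for Copz2, 1.32 for Ngfr, 1.10 for Tbkbp1, -0.95 for Ube2z and -2.50 for Sp6.

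**Figure D5:**
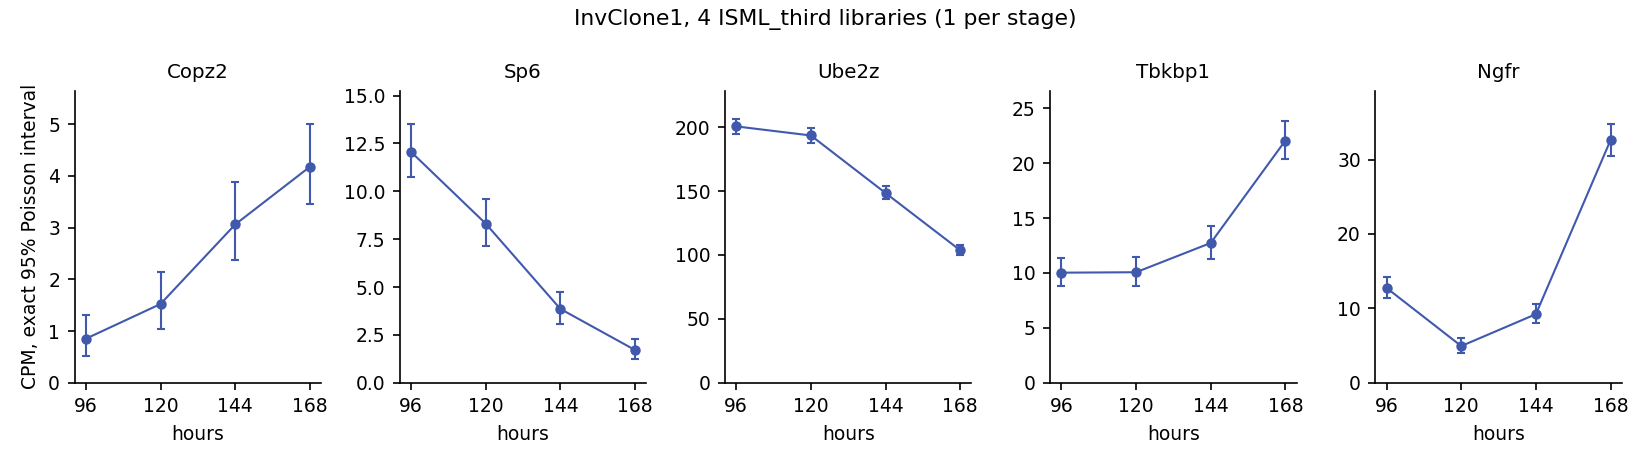
CPM of 5 members in InvClone1 at 96h, 120h, 144h and 168h, with 1 ISML_third library per stage and exact 95% Poisson intervals. Copz2 and Tbkbp1 are highest at 168h and Sp6 and Ube2z lowest, while Ngfr is lowest at 120h with 4.94 CPM.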

How the data were processed

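The authors deposited a table of whole-number counts of reads per gene for 55141 genes, not normalized, and a table of FPKM values from Cufflinks for 55138 genes, which also gives the gene positions used here. The tools named per the submitters' processing notes are STAR 2.7.10a, Cufflinks 2.2.1 and cutadapt 1.18, and the build is mm10. The sources used here do not state the counting program's version or strand setting, nor the annotation release. Gene names came from the deposited tables, in which 3 identifiers had no name, and 8 columns (4 in each table) matched no sample and were not used.

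Tests on counts used the quasi-likelihood method of edgeR 4.0.16 under R 4.3.3 (robust dispersion, TMM, filter on expression at a minimum count of 10, Benjamini-Hochberg adjustment over all genes, threshold 0.05). Comparisons at 120h came from 1 fit of 26 libraries with terms for group and library name (17769 genes, 8 residual degrees of freedom), and the stages from 10 libraries with terms for line and stage (16043 genes, 4 residual degrees of freedom). CPM are counts per TMM-scaled library size. At these totals 3 counts, the limit that a count of 0 allows, equal 0.0795 to 0.160 CPM, and this limit and the Poisson intervals cover counting error only. Fits were tested on simulated data. Changes of 1 on the log2 scale were recovered in 50% of genes for Ins over Del, 37% for InsDel7to10 over InvClone2 and 88% for the stages. Changes of 2 were recovered in 88%, 79% and 99%, and 10, 6 and 13 unchanged genes were called. Changes of 1 in members could thus be missed in comparisons between alleles. Replicates differed by a chi-square of 14.7 to 200.3 per degree of freedom, so none was merged.

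Replicate numbers were taken to pair Ins with Del, whose same-numbered libraries deviated together (r = 0.701, 0.477 and 0.847, same library names), and InvClone1 with Ins (r = 0.227, 0.530 and 0.155, different library names). No label states either pairing. This choice was not uniform, since InsDel5to10 and InvClone2, with r = 0.533 and the same library name, were not taken as paired. Alternatives were no filter, a minimum count of 50, DESeq2 1.42.0, limma 3.58.1 (voom), DESeq2 size factors, leaving out the library or line term, the compared libraries alone, the replicate block, each library left out and, added after seeing the data, the libraries that stand apart left out. The values of 1 member are not reported here, although counts over members include it. The members and lists were chosen with earlier results of these data known. Named were members past the threshold, the 5 nearest to the cluster on each side and those inside it, the 3 smallest p per comparison, the highest and lowest mean FPKM per side, and role lists by counts.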

Additional observations from a re-analysis of the deposited data

Results flagged for a closer look

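In 4 of the 34 members examined, 1 of the 4 InvClone1 libraries at 120h lay farther from the others than Dixon's limit for its group allows, and in each of them this was replicate 1, the lowest. Chance alone gives such a flag in about 1 in 20. The 4 flags all fall on 1 library, so they are not independent. The rate over all genes is not given here, so the count cannot be read as a trait of the flanking genes. Fam117a was at 16.1 CPM there and at 38.2 to 40.2 CPM in the other 3 libraries. Gm11539 was at 0.231 CPM, with 1.48 to 1.70 CPM in the others. Cdk5rap3 was at 31.9 CPM, with 64.1 to 66.9 CPM in the others, and Scrn2 was at 3.32 CPM, with 20.6 to 22.1 CPM in the others. What set this library apart was not tested.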

How the results depend on the processing

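Of 5427 member values under an alternative 5333 kept their direction and side of the threshold, or stayed uncalled, 27 lost a call, 63 gained one and 4 turned round after a call. The count of members called was within 1.5 times the main count in 131 of 161 alternatives. Without the filter on low counts it was 1 for Ins over Del, 1 for InsDel5to10 over InvClone2, 8 for InvClone2 over InvClone1, 2 for lines with the elements over lines without, and 7 for the stages. With the replicate block it was 3 (Atp5g1, Ngfr and Scrn2) for InsDel5to10 over InvClone2, 0 for InvClone2 over InvClone1, 1 (Ngfr) for lines with the elements over lines without and 1 (Scrn2) for the difference between both pairs. The last 2 comparisons hold Ins and Del, which the numbers pair, but their block also ties these to InvClone2 and InsDel5to10 by number alone. In the others no label beyond the number pairs single libraries. InsDel5to10, InsDel7to10 and InvClone2 all carry the name ISML_third, under both numbers. Deviations had r = 0.533 for InsDel5to10 and InvClone2, -0.367 and -0.230 for InsDel7to10 with InvClone2 and InsDel5to10, and 0.240 and -0.567 for InvClone2 and InvClone1. The block changed no other call. For InvClone2 over InvClone1 the count was 10 with DESeq2, 5 with limma voom, 4 with DESeq2 size factors, 5 at a minimum count of 50, and 0 without a library term and with the compared libraries alone. Without the libraries that stand apart this comparison rests in effect on 1 InvClone1 library, so no count is given. Where the number of all genes called is not given for a setting, the count of members cannot be set against their share. Cdk5rap3 turned to -0.0053 without a library term, -0.0053 with the compared libraries alone and -0.19 without the libraries that stand apart, and Scrn2 to -0.34 in the last. The stage count without the libraries that stand apart was 9. Leaving out 1 library at a time gave 0 to 1 members for InsDel7to10 over InvClone2, 0 to 2 for InsDel7to10 over InsDel5to10, 0 to 1 for InvClone1 over Ins, 1 to 8 for InvClone2 over InvClone1 and 1 to 9 for the stages. The cause was not tested. Counts of all genes called moved more: for InsDel5to10 over InvClone2 27 in the main fit, 383 without the filter, 46 with DESeq2 and 932 with the block, for InsDel7to10 over InvClone2 25, 554, 161 and 0, for InsDel7to10 over InsDel5to10 45, 957, 289 and 3, for InvClone2 over InvClone1 2071, 2609, 3172 and 1, and for Ins over Del 1, 89, 2 and 2. The 95% interval reached past 1 on the log2 scale in at least 1 of the 7 comparisons between alleles for all 9 members that averaged under 50 counts and for 8 with more counts, Atp5g1 and Scrn2 among them.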
